A study of Mus musculus with 8 samples.

Results

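The microglia genes of the hippocampus were examined as a set of 32 transcripts, listed by symbol as microglia-enriched and found in the deposited table by Ensembl identifier. All 32 were present among the 37310 genes of the table, each as a single row. The tissue came from 4 Nr2f1 heterozygotes, which carry a knockout allele, and from 4 wild-type (WT) mice, B6.129 F1 hybrids aged 3 months and labelled male, with a library from each animal. The mice received no treatment, both genotypes share the hybrid background, and the labels do not describe the knockout allele beyond its name. Nr2f1 encodes a nuclear receptor that patterns the developing cortex and hippocampus.

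Microglia are the resident macrophages of the brain. They arise from yolk sac precursors, depend on signalling through the receptor Csf1r, and keep their identity through transcription factors that include PU.1, the product of Spi1, and Sall1. In the hippocampus they survey synapses with motile processes, tag and engulf synaptic material with the help of complement C1q, and clear dying cells. In a bulk sample, fewer cells of a type and less RNA per cell cannot be told apart.

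Nr2f1 itself (ENSMUSG00000069171.7, chromosome 13) lay at 32.4, 31, 33.5 and 28.5 CPM in heterozygote libraries 1 to 4, against 53.4, 49.5, 54.1 and 51.6 CPM in WT libraries 1 to 4. CPM are read counts scaled to the library size after TMM normalisation. The groups did not overlap, and the log2 fold change came to -0.73 ± 0.0511 (SE; edgeR adjusted p = 7.32e-05; exact two-sided permutation p = 0.0286, the smallest that 4 against 4 allows). Libraries held 58717305 to 90043971 gene counts. Although all animals were labelled male, Xist, expressed from the inactive X chromosome of females, lay between 463.2 and 601.4 CPM in all 8 animals, and 14 genes of the Y chromosome had 3 counts in total. Both genotypes were alike in this. The hippocampal markers Prox1 and Wfs1, chosen after their values were seen, ranged over 48.3 to 65.0 and 272 to 365 CPM. Choroid plexus markers differed between libraries: the summed level of 12 such genes ran from 4120 to 4650 CPM in heterozygote libraries, and was 84.7, 1450, 446 and 2120 CPM in WT libraries 1 to 4.

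No microglia gene passed the test between genotypes. Of the 32 genes, all of which passed the filter on low counts, 0 were higher and 0 were lower at an edgeR adjusted p of 0.05, where 2.99% of the 17913 genes tested were called (2.62% higher and 0.368% lower). At an unadjusted edgeR p under 0.05 there were 4 members, Mpeg1, Itgb5 and Fcrls on the higher side and Inpp5d on the lower, beside 17.2% of all tested genes. The DESeq2 Wald test called Mpeg1, Itgb5 and Fcrls, among 1200 genes in all, and limma-voom called 0 members. The median log2 fold change of the 32 genes was 0.045, against -0.0056 over all tested genes, with 20 members above 0 and 12 below. Their summed level was 557, 541, 584 and 536 CPM in heterozygote libraries 1 to 4 and 545, 564, 548 and 524 CPM in WT libraries 1 to 4. The means were 554 ± 21.6 CPM in heterozygotes and 545 ± 16.2 CPM in WT (SD, n = 4 each), a ratio of 1.02. The ranges overlapped, with heterozygote library 3 the highest and WT library 4 the lowest.

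**Figure D1:**
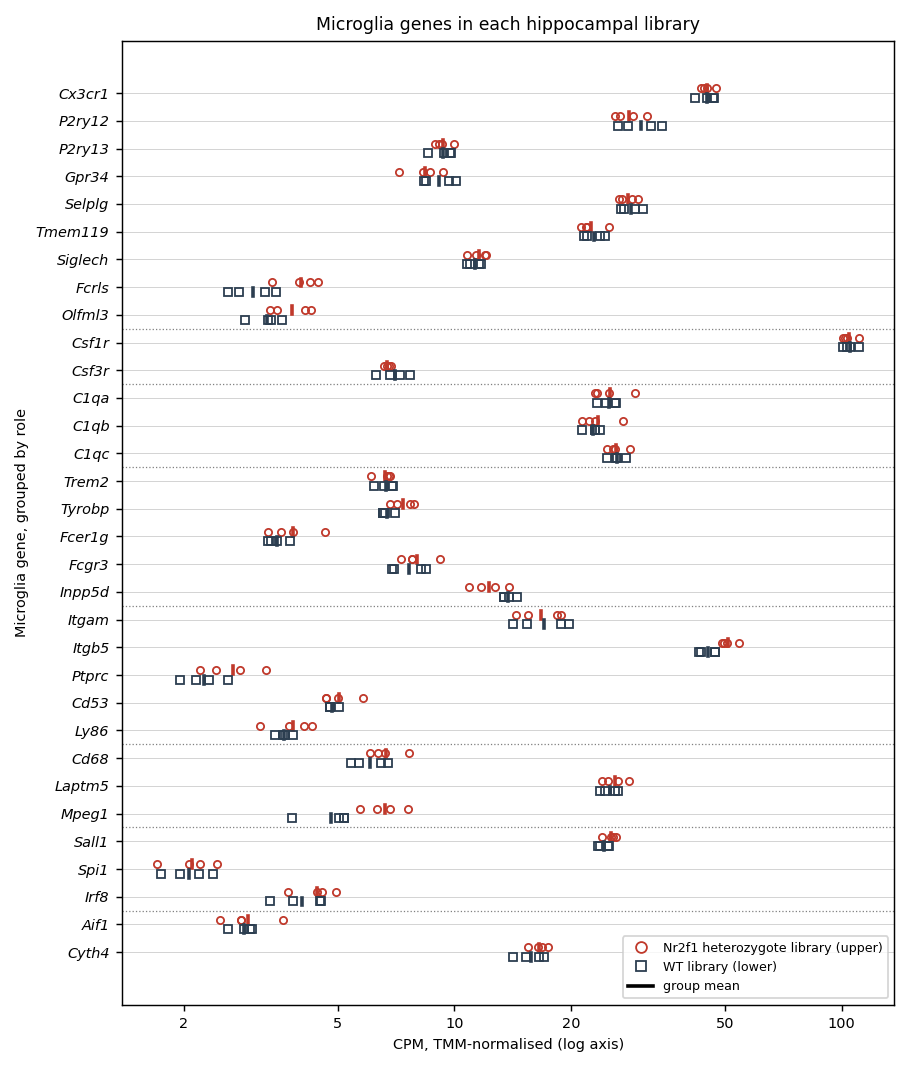
Levels of the 32 microglia genes in CPM on a log axis, with 1 open symbol per library (circles, heterozygotes; squares, WT) and a bar at each group mean; dotted lines separate the roles. The genotypes overlap in all rows but those of Itgb5 and Mpeg1.

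The size of difference that the data allow was narrow for many members. The 95% interval of the fold change lay within 1.2-fold in either direction for 15 of the 32 genes, within 1.5-fold for 30 and within 2-fold for all 32. Over all tested genes those shares were 53%, 73.9% and 87.4%. The interval reached past 1.5-fold for Mpeg1 and Fcrls. Csf1r, the receptor for CSF1 and IL-34 on which microglia depend for survival, had the lowest standard error of the 32 and an interval from -0.10 to 0.075 on the log2 scale.

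**Figure D2:**
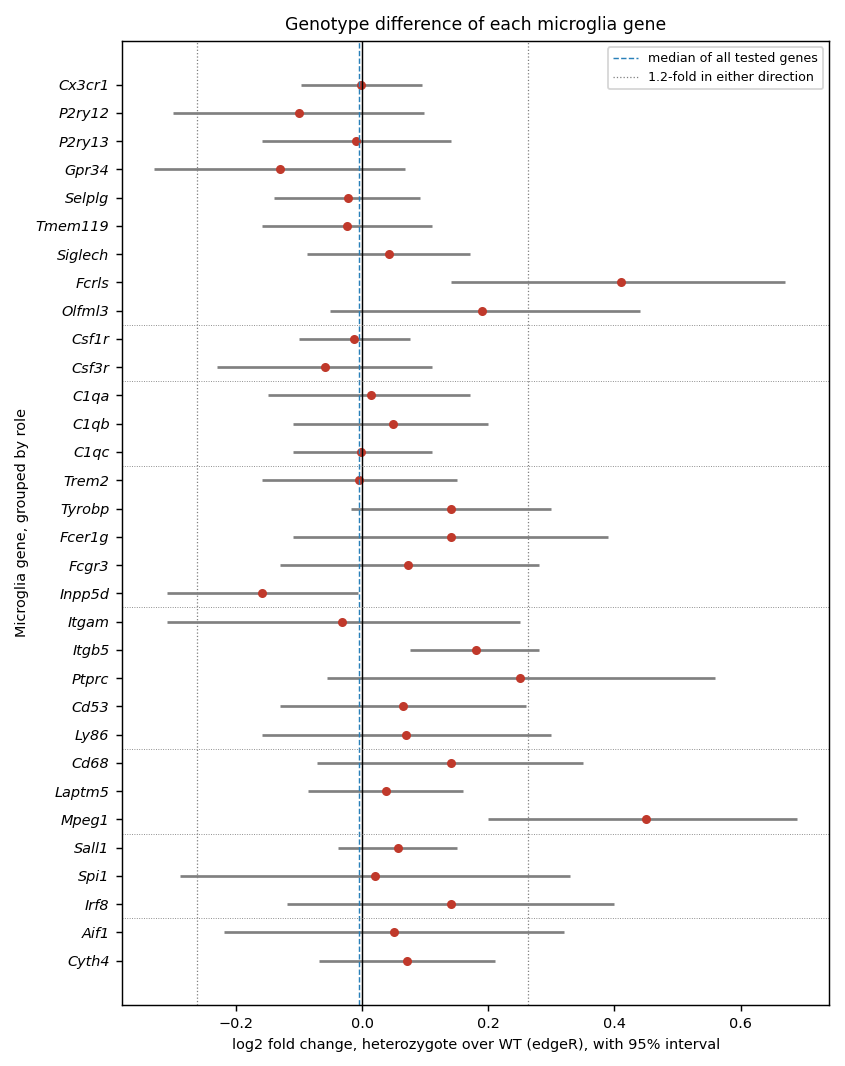
Log2 fold change of heterozygote over WT for each microglia gene (points) with its 95% interval (bars). Intervals of Mpeg1, Itgb5 and Fcrls lie above 0 and that of Inpp5d below it, and the others cross it.

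Receptors that microglia use to sense their surroundings did not separate the genotypes. Cx3cr1, the receptor for the neuronal chemokine fractalkine, lay at 47.3, 44.2, 44.9 and 43.4 CPM in heterozygote libraries and 46.5, 45.0, 46.7 and 41.8 CPM in WT libraries. Its log2 fold change was -0.0019 with an interval from -0.098 to 0.094 (edgeR adjusted p = 0.989). The libraries of the genotypes were interleaved. P2ry12, the ADP receptor that steers microglial processes towards injury, was at 31.4, 28.9, 26.0 and 26.7 CPM in heterozygotes and 32.2, 28.0, 34.4 and 26.4 CPM in WT. Its WT values split into a high pair, libraries 1 and 3, and a low pair, libraries 2 and 4, and the heterozygote values lay inside the WT span except for library 3 just under it. The log2 fold change was -0.10 ± 0.0888 (SE).

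Gpr34, a receptor for lysophosphatidylserine, had the lowest log2 fold change of the 9 surface genes, -0.13 ± 0.0913 (SE; edgeR adjusted p = 0.511). It was at 9.35, 8.31, 7.19 and 8.65 CPM in heterozygote libraries and 9.68, 8.33, 10.1 and 8.45 CPM in WT libraries, again with WT libraries 1 and 3 above 2 and 4. The second ADP receptor P2ry13 averaged 9.32 ± 0.474 CPM in heterozygotes and 9.37 ± 0.570 CPM in WT (SD, n = 4 each). Tmem119, a membrane protein used to tell microglia from blood-derived macrophages, averaged 22.5 ± 1.66 CPM and 22.9 ± 1.37 CPM in the same order. Neither gene separated the genotypes, and neither did Selplg, the ligand of P-selectin, or Siglech, a sialic acid-binding lectin, whose log2 fold changes were -0.023 and 0.042.

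Fcrls, an Fc receptor-like gene found in mouse microglia, and Olfml3, which encodes a secreted matrix protein, had higher means in heterozygotes without passing. Fcrls was at 4.45, 3.98, 4.23 and 3.38 CPM in heterozygote libraries, against 3.25, 2.78, 3.46 and 2.60 CPM in WT libraries. Heterozygote library 4 lay below WT library 3, so the groups overlapped. The log2 fold change was 0.41 ± 0.122 (SE; edgeR adjusted p = 0.0950), with 0.37 in libraries of odd number and 0.45 in those of even number. Olfml3 averaged 3.80 ± 0.457 CPM in heterozygotes and 3.29 ± 0.299 CPM in WT (SD, n = 4 each; edgeR adjusted p = 0.419).

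The growth factor receptors did not separate the genotypes. Csf1r was at 103, 102, 111 and 101 CPM in heterozygote libraries, against 105, 111, 103 and 101 CPM in WT libraries, a log2 fold change of -0.014 ± 0.0410 (SE; edgeR adjusted p = 0.909). Its libraries spanned nearly the same range in both genotypes. Csf3r, the receptor for granulocyte colony-stimulating factor, averaged 6.71 ± 0.116 CPM in heterozygotes and 7.02 ± 0.604 CPM in WT (SD, n = 4 each). The ligands of Csf1r were likewise uncalled, with log2 fold changes of 0.088 ± 0.0514 for Csf1 and -0.021 ± 0.0351 for Il34 (SE).

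C1q, the recognition molecule that starts the classical complement pathway, is built from 3 chains, and their genes C1qa, C1qc and C1qb lie together on chromosome 4. C1qa was at 25.1, 23.4, 29.3 and 23.0 CPM in heterozygote libraries and 23.3, 26.2, 24.6 and 25.9 CPM in WT libraries. For C1qb the values were 21.3, 23.1, 27.3 and 22.2 CPM in heterozygotes and 23.0, 23.7, 21.3 and 23.1 CPM in WT. C1qc was at 24.8, 26.0, 28.4 and 25.6 CPM in heterozygotes and 24.8, 27.8, 26.1 and 26.3 CPM in WT. All 3 chains were highest in heterozygote library 3, and for all 3 the other heterozygote libraries lay among the WT ones or at their edge. Log2 fold changes were 0.014, 0.048 and -0.0021, and none passed (edgeR adjusted p of 0.951, 0.793 and 0.990, in the order C1qa, C1qb, C1qc).

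Levels of different genes can be set side by side only per length, here as CPM per kilobase of annotated exon, which is approximate because the exons come from another annotation than the counts. On this scale C1qa ranked first of the 32, at 24.2 ± 2.75 in heterozygotes and 24.0 ± 1.29 in WT (SD, n = 4 each). C1qb followed at 21.6 ± 2.45 and 20.9 ± 0.965, a gap smaller than the spread of C1qa in heterozygotes but larger than it in WT. Csf1r came next at 18.0 ± 0.808 and 18.2 ± 0.748, and C1qc after it with a mean of 13.6 in each genotype. Itgb5 ranked after C1qc, at 14.3 ± 0.677 and 12.7 ± 0.655, by the mean of all libraries. Ptprc was last, at 0.146 ± 0.0254 and 0.123 ± 0.0150.

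The promoters of these genes were searched for GAGGAAGT, a core sequence that PU.1 is known to bind, on both strands. RefSeq windows on GRCm38.p6, of 250 bases before to 50 bases after a gene start, were matched for 25 of the 32 members, as 30 windows. The motif was found in 4 of the 30 windows, or 13.3%, beside 3.2% of all 32851 windows, in C1qc, Cd53, Cyth4 and Inpp5d. Its first 6 letters, GAGGAA, which every copy of the longer motif also holds, were found in 56.7% of the members' windows and 28.3% of all windows. The motif was chosen after the list was known, and a match describes letters, not a site of binding. The 250 bases before the start are shown for C1qc and Inpp5d, which hold the motif there, and for Mpeg1, the member with the lowest p, which does not. Capitals mark the motif or its reverse complement ACTTCCTC.
C1qc, chr4:136892915-136893164, minus strand: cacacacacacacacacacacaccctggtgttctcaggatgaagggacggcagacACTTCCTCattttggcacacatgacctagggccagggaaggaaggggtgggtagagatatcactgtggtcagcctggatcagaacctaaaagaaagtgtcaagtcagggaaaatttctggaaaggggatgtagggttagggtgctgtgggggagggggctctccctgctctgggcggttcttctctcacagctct
Inpp5d, chr1:87620062-87620311, plus strand: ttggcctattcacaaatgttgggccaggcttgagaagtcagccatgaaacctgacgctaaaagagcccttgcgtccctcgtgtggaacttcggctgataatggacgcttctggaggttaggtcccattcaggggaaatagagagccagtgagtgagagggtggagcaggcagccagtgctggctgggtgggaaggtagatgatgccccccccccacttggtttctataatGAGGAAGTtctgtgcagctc
Mpeg1, chr19:12460520-12460769, plus strand: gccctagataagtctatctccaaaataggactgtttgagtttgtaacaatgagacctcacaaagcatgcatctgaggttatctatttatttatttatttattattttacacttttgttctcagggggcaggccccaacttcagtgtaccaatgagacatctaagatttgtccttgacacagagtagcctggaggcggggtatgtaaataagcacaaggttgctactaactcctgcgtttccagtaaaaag
In C1qc the reverse complement begins at position -195 relative to the start, and in Inpp5d the motif begins at -20. In Cd53 and Cyth4 the match lies after the start.

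Trem2, a receptor for lipids and lipoproteins, signals through the adaptor Tyrobp, also called DAP12, and both are needed for microglia to respond to damage. Trem2 was at 6.10, 6.82, 6.70 and 6.78 CPM in heterozygote libraries and 6.88, 6.96, 6.59 and 6.20 CPM in WT libraries, with a log2 fold change of -0.0052 ± 0.0726 (SE). Tyrobp was at 7.88, 7.11, 7.70 and 6.80 CPM in heterozygotes and 6.62, 6.53, 7.04 and 6.53 CPM in WT. Of the heterozygote libraries only library 4 lay below the highest WT library, and the log2 fold change of Tyrobp was 0.14 ± 0.0727 (SE; edgeR adjusted p = 0.356). The Fc receptor chains Fcer1g and Fcgr3 had log2 fold changes of 0.14 and 0.072 and overlapped between genotypes. Fcgr3 has close relatives in the mouse genome, and how reads that match several of them were counted is not known here.

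Inpp5d encodes SHIP1, a lipid phosphatase that dampens signalling from these receptors. It lay at 10.9, 12.7, 13.8 and 11.7 CPM in heterozygote libraries, against 14.5, 13.4, 13.4 and 13.8 CPM in WT libraries. Of the heterozygote libraries, only library 3 reached the WT range. The log2 fold change was -0.16 ± 0.0707 (SE), the lowest of the 32, and did not pass (edgeR adjusted p = 0.269). Without heterozygote library 1 it was -0.11, and without heterozygote library 3 it was -0.22.

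Among integrins and leukocyte surface proteins, the genotypes did not overlap for Itgb5, as for 10.6% of all tested genes, and overlapped for the others. Itgb5, an integrin subunit that cells outside the myeloid lineage also express, was at 49.7, 50.6, 54.4 and 49.1 CPM in heterozygote libraries, against 43.3, 47.0, 42.8 and 47.2 CPM in WT libraries. All heterozygote libraries lay above all WT ones. The log2 fold change was 0.18 ± 0.0465 (SE), and the gene did not pass (edgeR adjusted p = 0.0617). It passed without WT library 4, at a log2 fold change of 0.21 (edgeR adjusted p = 0.0400). It was 0.28 in libraries of odd number, 0.082 in those of even number and 0.11 without WT libraries 1 and 3, and with a covariate for choroid plexus level it was 0.076.

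Itgam, which encodes CD11b of complement receptor 3, spread the most within genotypes. It was at 18.8, 14.4, 15.5 and 18.4 CPM in heterozygote libraries and 15.4, 18.9, 19.8 and 14.2 CPM in WT libraries. Each genotype held 2 libraries above 18 CPM and 2 below 16 CPM. The standard deviation within genotypes was 0.205 on the log2 scale, where counting error alone gives 0.0397 and the median member had 0.113. In the annotation used for exon lengths, the gene model Gm49368 shares exons with Itgam on the same strand. Whether the annotation behind the counts held Gm49368 is not known here, nor whether it affected the counts of Itgam. Ptprc, the pan-leukocyte phosphatase CD45, averaged 2.67 ± 0.465 CPM in heterozygotes and 2.26 ± 0.275 CPM in WT (SD, n = 4 each; edgeR adjusted p = 0.399). Cd53, a tetraspanin, and Ly86, a partner of a Toll-like receptor relative, had log2 fold changes of 0.065 and 0.070.

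Of the 3 genes of the lysosome and phagosome, Mpeg1 differed most. Mpeg1, which encodes the pore-forming protein perforin-2 of macrophage phagosomes, was at 7.60, 6.31, 6.83 and 5.71 CPM in heterozygote libraries, against 3.80, 5.18, 5.18 and 5.03 CPM in WT libraries. All heterozygote libraries lay above all WT ones, the lowest being WT library 1. The log2 fold change was 0.45 ± 0.114 (SE) with an interval from 0.20 to 0.69, the largest change of the 32, and it did not pass (edgeR adjusted p = 0.0549). Without the filter on low counts it passed at 0.44 (edgeR adjusted p = 0.0424). It was 0.68 in libraries of odd number, 0.23 in those of even number and 0.36 without WT libraries 1 and 3 (edgeR adjusted p = 0.291). Choroid plexus level as a covariate gave 0.21. With the same covariate Fcrls went from 0.41 to 0.67, the highest of the 32, and 0 members passed. The part of choroid plexus tissue in the Mpeg1, Itgb5 and Fcrls differences was not tested. Over the 32 members, 2 did not overlap between genotypes, Mpeg1 and Itgb5, a share of 6.25% beside 10.6% of all tested genes.

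Cd68, a glycoprotein of macrophage lysosomes often stained to show phagocytic microglia, was at 6.63, 6.36, 7.65 and 6.07 CPM in heterozygote libraries and 5.42, 6.46, 6.74 and 5.66 CPM in WT libraries. The groups overlapped, and the log2 fold change was 0.14 ± 0.0976 (SE; edgeR adjusted p = 0.510). Laptm5, a lysosomal membrane protein of blood-lineage cells, averaged 25.9 ± 1.84 CPM in heterozygotes and 25.2 ± 1.27 CPM in WT (SD, n = 4 each).

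The transcription factors that set microglial identity did not separate the genotypes. Sall1, a zinc finger factor that holds microglia in their resting state, was at 25.7, 26.2, 24.0 and 25.3 CPM in heterozygote libraries and 23.7, 25.1, 24.9 and 23.5 CPM in WT libraries. Its standard deviation within genotypes, 0.0499 on the log2 scale, was the lowest of the 32. Spi1 was at 2.06, 1.71, 2.21 and 2.44 CPM in heterozygotes and 1.96, 2.38, 1.75 and 2.19 CPM in WT, from 121 to 207 counts a library. Its interval ran from -0.29 to 0.33. Irf8, a partner of PU.1 in myeloid cells, averaged 4.42 ± 0.515 CPM in heterozygotes and 4.05 ± 0.569 CPM in WT (SD, n = 4 each; edgeR adjusted p = 0.596).

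Aif1, whose product IBA1 is the usual stain for microglia, was at 2.82, 2.48, 3.60 and 2.82 CPM in heterozygote libraries and 2.87, 2.96, 3.00 and 2.60 CPM in WT libraries. Heterozygote libraries held both the highest and the lowest value, and the log2 fold change was 0.050 ± 0.126 (SE; edgeR adjusted p = 0.886). Cyth4, an exchange factor for ARF proteins, averaged 16.5 ± 0.818 CPM in heterozygotes and 15.8 ± 1.28 CPM in WT (SD, n = 4 each).

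The members' highest and lowest levels gathered in certain libraries. Of the 32 genes, 14 had their highest level in heterozygote library 3 and 11 had their lowest in WT library 4. Centred on the mean of the 8 libraries, the mean log2 level of the set was 0.10 in heterozygote library 3 and -0.075 in WT library 4, and lay between -0.041 and 0.034 in the other 6. Without heterozygote library 3 the median log2 fold change of the set was -0.0044, and without WT library 4 it was 0.035. The median was 0.10 in libraries of odd number, 0.0098 in those of even number, whose ERCC spike-in ratios differ (1.2 to 1.28 and 0.165 to 0.186 for one pair of spike-ins), and 0.044 without WT libraries 1 and 3.

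**Figure D3:**
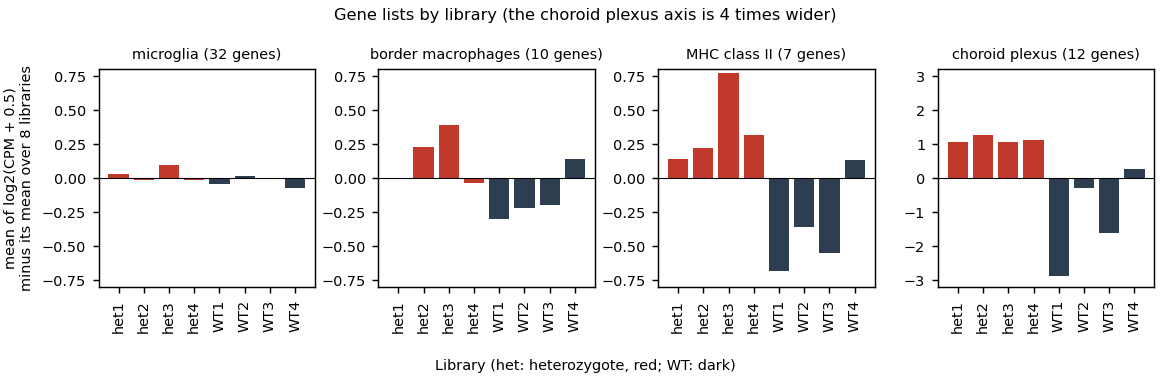
Mean log2(CPM + 0.5) of 4 gene lists in each library, minus the mean over the 8 libraries (red, heterozygotes; dark, WT). Microglia genes stay within 0.10 of 0, and the choroid plexus list, drawn on an axis 4 times wider, is lowest in WT library 1.

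Genes of other macrophages had larger median differences than the microglia genes. Markers of macrophages at the borders of the brain, such as the meninges, perivascular space and choroid plexus, lay at 0.48, as the median log2 fold change of 10 genes. Of these, Folr2, a folate receptor gene, was higher, at 0.765, 0.928, 0.808 and 0.592 CPM in heterozygote libraries and 0.333, 0.369, 0.338 and 0.412 CPM in WT libraries (edgeR adjusted p = 0.0225), and 0 were lower. Log2 fold changes of the list ran from -0.84 for Ms4a7 to 1.08 for Folr2, with 9 above 0 and 1 below, and Cd163 was at 0.00049. Some levels were low, such as that of Ms4a7, with means of 0.0977 CPM in heterozygotes and 0.166 CPM in WT. The median standard error of the list was 0.294, against 0.075 for the microglia genes. The summed level of the list was 19.7, 22.6, 28.1 and 17.8 CPM in heterozygotes and 14.4, 14.9, 15 and 21.2 CPM in WT, so the groups overlapped through WT library 4. Without that library 4 border macrophage genes were higher. WT library 4 was also the highest WT library in choroid plexus markers. A covariate for choroid plexus level brought the border macrophage median to 0.028, against 0.050 for the microglia genes. Over all tested genes that covariate left 1 call, against 535 without it. Choroid plexus level moved with the genotype, and its part in the border macrophage difference was not tested.

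The MHC class II genes, which present antigen and are low in resting microglia, lay at 1.23, as the median log2 fold change of 7 genes, and 0 passed in either direction (DESeq2 called 2 and limma-voom 0). H2-Ab1 was at 1.31, 1.44, 2.67 and 1.33 CPM in heterozygotes and 0.280, 0.611, 0.526 and 1.11 CPM in WT (edgeR adjusted p = 0.0778). H2-Eb1 was at 2.26, 2.14, 3.90 and 2.06 CPM in heterozygotes and 0.520, 0.933, 0.639 and 1.77 CPM in WT (edgeR adjusted p = 0.0817). Both were highest in heterozygote library 3 and, within WT, in library 4. The rest of the list overlapped between genotypes. Log2 fold changes were 1.46 for H2-Aa, 1.23 for Cd74 and 0.88 for H2-DMb1. H2-DMa, at means of 12 CPM in heterozygotes and 11 CPM in WT, had 0.13, and Ciita had -0.073. Without WT library 4, 4 of the 7 were higher, and at an unadjusted edgeR p under 0.05 there were 5. With a covariate for choroid plexus level the median was 0.21. That level moved with the genotype, and its part in these differences was not tested.

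**Figure D4:**
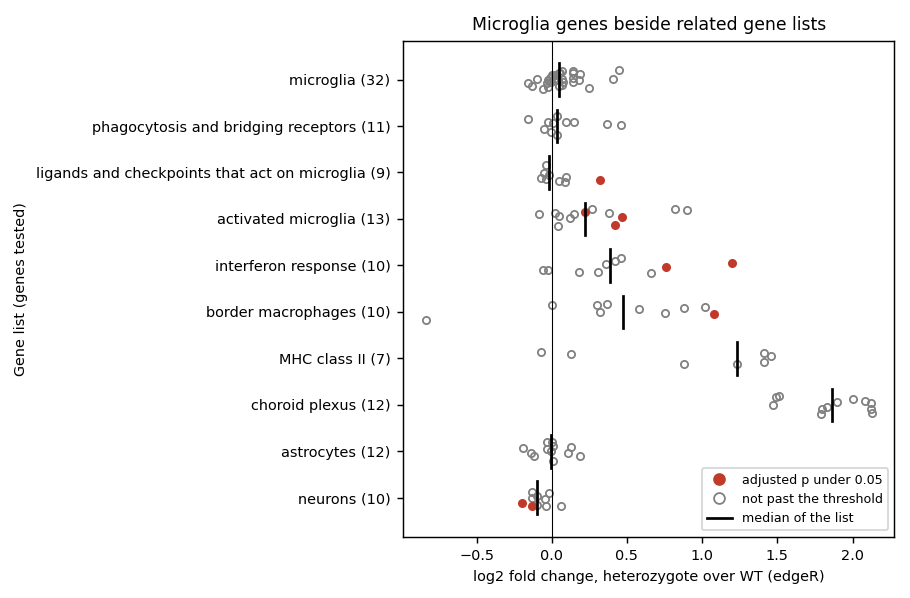
Log2 fold change of each gene (circles, filled where the adjusted p was under 0.05) in the microglia list and 9 related lists, with a bar at each median. The microglia median lies at 0.045, and those of the MHC class II and choroid plexus lists at 1.23 and 1.86.

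Genes that rise in activated or disease-associated microglia included 3 that were higher. Of 15 listed, 13 were tested and 0 were lower, and the median stood at 0.22. These were the lysosomal protease gene Ctsd, at 376 ± 4.55 CPM in heterozygotes and 323 ± 20.7 CPM in WT, and the tetraspanin genes Cd63, at 43.3 ± 2.84 and 31.1 ± 4.32 CPM, and Cd9, at 34.6 ± 1.96 and 25.7 ± 3.70 CPM (SD, n = 4 each; edgeR adjusted p of 0.0194, 0.0288 and 0.0393). All 3 are also expressed by other brain cells. The DESeq2 Wald test called 5 genes of the list. The others of the list are given next, with their values known. Lyz2, a lysozyme gene of myeloid cells, was at 4.77, 6.42, 7.20 and 3.81 CPM in heterozygote libraries and 2.67, 3.21, 3.05 and 3.74 CPM in WT libraries, without overlap and without passing (log2 fold change 0.82 ± 0.199, SE; edgeR adjusted p = 0.0581). Apoe, an apolipoprotein gene that astrocytes express strongly, did not overlap either, at 1290 ± 84.5 CPM in heterozygotes and 1160 ± 64.2 CPM in WT (SD, n = 4 each; edgeR adjusted p = 0.142). Spp1, which encodes osteopontin, averaged 7.28 ± 3.29 CPM in heterozygotes and 3.92 ± 2.4 CPM in WT with overlap (SD, n = 4 each; edgeR adjusted p = 0.423). Few reads fell on 3 more: Cst7 had 10 counts over the 4 heterozygote libraries and 15 over the 4 WT ones, and Clec7a had 7 and 22. Itgax was at a log2 fold change of 0.12 ± 0.522 (SE). The rest of the list overlapped between genotypes without passing. Log2 fold changes were -0.084 for Lpl, 0.018 for Fth1, 0.038 for Ctsb, 0.045 for Gpnmb, 0.27 for Timp2 and 0.38 for Ccl6.

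Of cytokine and inflammasome genes, 8 of 13 were tested and Tlr2, a sensor of bacterial lipoproteins, was higher, at 2.05 ± 0.437 CPM in heterozygotes and 1.02 ± 0.250 CPM in WT (SD, n = 4 each; edgeR adjusted p = 0.0286). No gene of the list was lower in edgeR. Casp1, the inflammasome caspase, is named with its values known. It lay at 1.24, 1.54, 1.36 and 1.06 CPM in heterozygote libraries and 1.39, 2.50, 2.32 and 3.11 CPM in WT libraries, with a log2 fold change of -0.85 ± 0.226 (SE; edgeR adjusted p = 0.0665). Under the DESeq2 Wald test, without WT library 1, and without WT libraries 1 and 3, the list had 1 lower gene. The list had a median of 0.012, and Tnf had 2 and 3 counts over the heterozygote and WT libraries. Of 10 interferon response genes, Bst2, at 2.29-fold, and Ifitm3, at 1.70-fold, were higher and 0 were lower, with a median of 0.39 (edgeR adjusted p of 0.00899 and 0.0266). Among 9 tested ligands that act on microglia, Gas6, which bridges dying cells to phagocytic receptors, was 1.25-fold higher (edgeR adjusted p = 0.0289) and 0 were lower, with a median of -0.021. No gene of the phagocytic receptor list or of complement beyond C1q passed, in 11 and 12 genes tested, with medians of 0.034 and 0.32. Unadjusted edgeR p-values were under 0.05 for 1 gene of the first, which was higher, and 7 of the second, 6 higher and 1 lower. DESeq2 called 0 and 3, and limma-voom called 0 in each. The lower complement gene was Cfb, at 0.148 ± 0.0747 CPM in heterozygotes and 0.309 ± 0.0535 CPM in WT (SD, n = 4 each). Its groups did not overlap, and it did not pass (edgeR adjusted p = 0.148). The lowest p in these lists belonged to Cd14 and Cd36, at log2 fold changes of 0.37 and 0.46, and to Serping1 and C1ra, at 0.46 and 0.68. Without WT library 4, 3 complement genes were higher.

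None of the calls of Folr2, Ctsd, Cd63, Cd9, Tlr2, Bst2, Ifitm3 and Gas6 held without WT libraries 1 and 3 together, the libraries lowest in choroid plexus markers (edgeR adjusted p from 0.0540 to 0.232). In even-numbered libraries alone, and with a covariate for choroid plexus level, none held either. With fewer libraries, calls over all genes fell from 535 to 170 without WT libraries 1 and 3, and to 78 in even-numbered ones. The choroid plexus covariate, which moved with the genotype, left 1. Without WT libraries 1 and 3, log2 fold changes of the named genes were smaller but kept their sign. They ran from 0.14 (Ctsd) to 0.98 (Folr2), against 0.22 and 1.08 in the main fit. Whether these genes follow choroid plexus level was not tested. With a covariate for the run of animal numbers in the titles, only Bst2 and Tlr2 kept their calls (edgeR adjusted p = 0.0267 and 0.0366), and the others lay between 0.0528 and 0.0887. With ERCC scaling only Bst2 did (edgeR adjusted p = 0.0305). Without the low-count filter Cd63 and Cd9 lost theirs (edgeR adjusted p = 0.0554 and 0.0730), and in odd-numbered libraries alone Folr2 and Tlr2 did (0.104 and 0.120). Without single libraries, Bst2 kept its call each time, and Ctsd lost it without WT library 1 or 3 (edgeR adjusted p = 0.0578 and 0.0746). Gas6 and Cd9 lost theirs without any library but WT 4 (0.0565 to 0.0850 and 0.0639 to 0.110). Cd63 and Ifitm3 lost theirs without heterozygote library 1, 2 or 3 or WT library 1 or 3 (0.0527 to 0.0871 and 0.0507 to 0.0831). Tlr2 lost its call without heterozygote library 1, 2 or 4 or WT library 1 or 3 (0.0638 to 0.0856), and Folr2 without heterozygote library 2 or 3 or WT library 1 or 3 (0.0550 to 0.0731).

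Markers of blood leukocytes were near the limit of counting. Of 8 monocyte and neutrophil genes 3 passed the filter, with a summed level of 0.740 to 1.00 CPM in heterozygotes and 0.439 to 0.818 CPM in WT, and 0 passed the test; Ccr2 and S100a9 had log2 fold changes of 1.46 ± 0.501 and 0.63 ± 0.548 (SE). Of 8 lymphocyte genes 2 passed the filter and 0 the test, with Cd79a at 0.60 ± 0.384 and Trac at -0.43 ± 0.281 (SE). DESeq2 and limma-voom called 0 too, and unadjusted edgeR p-values were under 0.05 for 1 and 0 genes. The 32 microglia genes summed to 536 to 584 CPM in heterozygotes and 524 to 564 CPM in WT. These sums cover unlike numbers of genes and are not per length, so they do not compare numbers of cells.

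Other cell types of the hippocampus set the scale for the microglia genes. The median log2 fold change was -0.0035 over 12 astrocyte genes, 0.12 over 10 oligodendrocyte genes and 0.017 over 9 endothelial genes, and 0 of them passed (5, 0 and 3 at an unadjusted edgeR p under 0.05, and 3, 0 and 0 called by DESeq2, and 1, 0 and 0 by limma-voom). It was -0.10 over 10 neuronal genes, of which Rbfox3 and Snap25 were lower (edgeR adjusted p = 0.0396 and 0.0419), Rbfox3 losing its call without any single library but WT 4 (0.0512 to 0.125) and Snap25 without any but heterozygote 2 or WT 2 (0.0594 to 0.130). With the animal-number covariate both lost their calls (edgeR adjusted p = 0.0947 and 0.0816). In the choroid plexus and ependymal lists the medians were 1.86 and 1.34, with 0 of 12 and 4 of 6 genes higher (DESeq2 4 and 6, limma-voom 0 and 5, and 11 and 6 at an unadjusted edgeR p under 0.05). The lowest p-values belonged to Slc1a2 and Fgfr3 among astrocyte genes (log2 fold changes of -0.14 and -0.19), Opalin and Mog among oligodendrocyte genes (0.26 and 0.16), and Tek and Ly6a among endothelial genes (-0.14 and 0.17). In the choroid plexus list they belonged to Calml4 and Kcnj13, at log2 fold changes of 1.80 and 2.08 (edgeR adjusted p = 0.0659 and 0.0944). The ependymal genes that were higher were Mia, Dynlrb2, Rsph1 and Ccdc153, by 2.52-, 3.08-, 2.31- and 2.55-fold (edgeR adjusted p from 0.00899 to 0.0385). These counts moved with the setting. Choroid plexus genes past the threshold numbered 11 with ERCC scaling, 9 without WT libraries 1 and 3, 6 in odd-numbered and 5 in even-numbered libraries, and 2 without WT library 4. Ependymal ones numbered 1 without heterozygote library 2 or 4 or WT library 3, 2 without heterozygote library 1 or WT library 1, and 3 without heterozygote library 3. They numbered 1 with the animal-number covariate or in even-numbered libraries, 2 without the low-count filter, and 6 with ERCC scaling or in odd-numbered libraries. With the choroid plexus covariate 0 passed in either list. Among oligodendrocyte genes, 7 of 10 were higher in odd-numbered libraries alone, at a median of 0.37. In even-numbered libraries 0 of them passed, at a median of -0.069. No test compared the microglia list with these lists.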

How the data were processed

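The deposited table holds raw counts of reads for each Ensembl gene in 8 libraries, 1 per animal, with 92 ERCC spike-in rows (0.0431% to 0.0787% of counts), which were left out of library sizes and tests. Per the labels' protocols, complementary DNA came from a NuGEN Ovation kit with poly(A) and random primers, which does not mark strand, so reads of P2ry12, Csf1r and Cx3cr1 cannot be told from antisense genes that share exons with them. STAR 2.4.2a, HTSeq and DESeq2 and the builds mm9 and NCBIM37 are named in the submitters' processing notes; the annotation and strand setting are not known here. Symbols came from GENCODE M21 on GRCm38, matched on Ensembl identifiers (32620 of 37310 genes), and lengths from its exons, so coordinates of the counts are not printed; promoter windows are RefSeq's.

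Counts were normalised by TMM, filtered with filterByExpr (minimum count 10, total 15) and compared with the quasi-likelihood test of edgeR 4.0.16 (robust) (R 4.3.3), as two-sided tests, Benjamini-Hochberg adjusted over 17913 genes at 0.05. Standard errors are the log2 fold change over the root of F, and 95% intervals use the same t distribution. Alternatives were other scalings and filters, DESeq2 1.42.0, limma-voom (limma 3.58.1), libraries left out, odd-numbered or even-numbered libraries alone, and covariates. The sample titles name no spike-in mix, and odd and even libraries differed in the ratio of a pair of ERCC rows. The edgeR step was tested on simulated data.

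All members are named. From each other list, genes past 0.05 (at most 4) are named, else the 2 with the lowest p. Beyond this rule, further genes of these lists are named with their values known. The members, lists and tests were chosen with earlier results of these data known. Libraries held 58717305 to 90043971 gene counts, and 3 counts equal 0.0332 to 0.0510 CPM. Intervals of the fold change come from the edgeR fit, so they include the spread between libraries. The standard deviations given for counting error alone leave that spread out. Replicate numbers did not pair the libraries.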

Additional observations from a re-analysis of the deposited data

Results flagged for a closer look

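A library stood apart from the other 3 of its genotype in 7 of 130 groups examined (65 genes in 2 genotypes), where chance flags about 1 in 20. Among microglia genes these were Trem2 in heterozygote library 1 (6.10 CPM, the nearest other at 6.70), Cd53 in WT library 4 (5.03 CPM, the nearest at 4.78) and Mpeg1 in WT library 1 (3.80 CPM, the nearest at 5.03). Without WT library 1 the log2 fold change of Mpeg1 was 0.36 (edgeR adjusted p = 0.136). In the other lists they were H2-Ab1 and H2-Eb1 in heterozygote library 3 (2.67 and 3.90 CPM), and Bst2 and Kcnj13 in heterozygote library 2 (3.46 and 10.2 CPM).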

How the results depend on the processing

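The count of microglia genes past the threshold was 0 in edgeR, and over 21 alternatives it was 3 with the DESeq2 Wald test, 1 without the low-count filter (Mpeg1) and 0 to 1 without single libraries (Itgb5 without WT library 4). The median log2 fold change of the set, 0.045, was 0.15 with spike-in scaling, 0.055 above the median of all genes, and 0.10 among odd-numbered libraries. Without single libraries it ran from -0.0044 to 0.066. Of the 32 members, 12 kept their sign in all 21 alternatives and 20 changed it in at least 1, none past the threshold. The count over all genes, 535, was 185 with spike-in scaling, 1200 with the DESeq2 Wald test, 231 with a covariate for the run of animal numbers in the titles, 78 among even-numbered libraries, 170 without WT libraries 1 and 3, and 1 with a covariate for choroid plexus level. Without single libraries it ran from 171 to 767. The log2 fold change of Nr2f1 was -0.64 with spike-in scaling and did not pass (edgeR adjusted p = 0.897). That scaling used the summed counts of the ERCC rows. The ratio of a pair of them was 1.2 to 1.28 in odd-numbered libraries and 0.165 to 0.186 in even-numbered ones. Under it the standard error of Ctsd was 0.304, against 0.0425 in the main fit. For the changes between settings the cause was not tested. With the replicate number as a block, 0 members and 406 genes passed, and Folr2, Cd63, Ifitm3, Rbfox3 and Snap25 lost their calls; same-numbered libraries correlated between -0.19 and 0.072 in their deviations, and they share only a number. Counting error alone gives a standard deviation of 0.105 (log2) for Ptprc and 0.114 for Spi1, the members with the fewest reads, beside 0.179 and 0.165 observed within genotypes.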
